A study of Homo sapiens with 6 samples.

Results

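Genes of the nuclear pore and of nuclear transport were compared between Sup-PR, a prednisolone-resistant leukaemia line, and Sup-B15, the prednisolone-sensitive line it was derived from. The members were the protein-coding genes of the deposited table whose name is NUP, XPO, IPO, KPNA, KPNB or TNPO with its number (XPOT included), together with TPR, RAN, RANBP1, RANBP2, RANGAP1, CSE1L, POM121 and NDC1. This name rule took 52 of the 25838 genes in the table, or of 14706 protein-coding genes. Of these 52, 51 had enough reads to be tested, and NUP210L did not.

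The nuclear pore complex is the channel through the nuclear envelope. It is built from nucleoporins that form an outer and an inner ring around the pore, a membrane anchor, a central channel lined with phenylalanine-glycine repeats, a basket on the nuclear side and filaments on the cytoplasmic side. Larger cargo crosses it on receptors of the karyopherin family: importins carry proteins in, exportins carry proteins and RNAs out, and the small GTPase Ran sets the direction, since Ran-GTP in the nucleus frees cargo from importins and loads it onto exportins. In B cell precursors, as elsewhere, transcription factors, ribosome precursors and the glucocorticoid receptor all pass through this machinery.

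Sup-PR is labelled as the resistant sub-clone, Sup-B15 as the parental line, and both are B-cell precursor acute lymphoblastic leukaemia. Each line gave 3 libraries from untreated cells, and the study's methods do not say when Sup-PR was last grown with prednisolone. Only 1 sub-clone was set against 1 parental line, and differences tied to resistance cannot be told apart from others that the sub-clone carries. The libraries of each line are called biological replicates, but the sources do not say that they were separate cultures. The p-values therefore rest on the spread of these 6 libraries, part of which may be technical. The serum content of the medium differs between the sample labels and the study's methods.

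The libraries held 20112543 to 23608056 counts in Sup-PR and 16966569 to 26603422 in Sup-B15. Nuclear pore and transport genes took 0.988% to 1.03% of the counts of the Sup-PR libraries, against 0.866% to 0.907% of those of Sup-B15, and the libraries of both lines did not overlap. All 11 precursor B cell markers examined were detected in both lines. At an adjusted p under 0.05, 7 of them were lower in Sup-PR and 0 higher, where 27.4% and 28% of all genes tested were. Their summed level was 6583 to 7279 CPM (counts scaled to a common library total) in Sup-PR and 8903 to 9989 CPM in Sup-B15. Of 7 T cell markers only CD8A was in the table, at no more than 0.105 CPM in any library. Of 5 erythroid markers only ALAS2 was in the table, at 0.251 CPM or less in Sup-PR and 0.344 CPM or less in Sup-B15. The NK cell and myeloid lists summed to 22.6 to 23.7 and 6.43 to 8.79 CPM in Sup-PR, against 52.6 to 60.6 and 16.4 to 24.6 CPM in Sup-B15. NKG7 was the only NK cell marker with enough reads to be tested (mean 23.1 CPM in Sup-PR, 55.1 CPM in Sup-B15). In the myeloid list CTSG (1.03 against 11.2 CPM) and CSF1R (1.95 against 3.84 CPM) were lower in Sup-PR, and MPO did not pass. These sums rest on few genes and do not give the number of such cells. The stroma list summed to 9.58 to 12.3 CPM in Sup-PR and 11.0 to 11.9 CPM in Sup-B15. The part of these differences in the results that follow was not tested. In bulk RNA, fewer cells that express a gene and less of its RNA per cell cannot be told apart.

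Transport genes were mostly higher in Sup-PR cells, by small amounts. At an adjusted p under 0.05 in edgeR's quasi-likelihood test, 34 of the 51 tested members were higher in Sup-PR and 4 were lower, and 13 did not pass. Across all 14869 genes tested, 28% were higher and 27.4% were lower by the same rule. These shares are the background for every count by role and list that follows. The members' median log2 fold change was 0.25, against -0.01 over all genes tested. The changes were narrow. The members ran from -0.19 to 0.67, whereas all genes tested ran from -13.15 to 6.90. Only 1 member, IPO5, was also past a fold change of 1.5 upwards and 0 were past it downwards, where 7.53% and 15.4% of all genes were. The CPM values of the 2 lines did not overlap for 40 of the 51 members, 36 of them higher and 4 lower in Sup-PR, and this was so for 61.1% of all genes tested.

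The background depended on how strongly the genes compared were expressed. Among the 7866 protein-coding genes with a mean CPM of 15 to 644, a range chosen after the values were seen to span 50 of the members, 39.6% were higher in Sup-PR and 24.6% lower, with a median log2 fold change of 0.08. In the same range 68.0% of the members were higher and 8% lower, with a median of 0.24. The 34 higher members changed by 1.09-fold to 1.59-fold, with a median of 1.25-fold. Of the 34, 29 also passed without any one of the 6 libraries and 26 under each of the 3 other scalings tried. Those lost under 2 of these scalings were NUP160, NUP98, RANGAP1, TPR, TNPO3 and NUP58, and IPO11 and NUP205 were lost under 1.

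**Figure D1:**
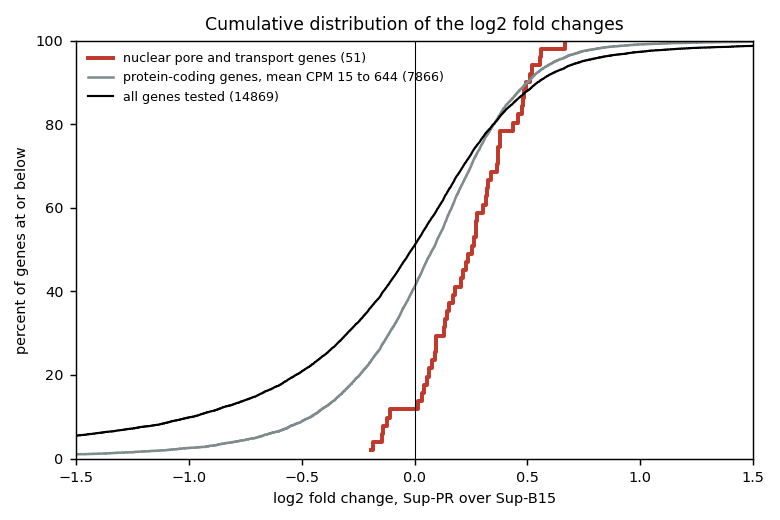
Cumulative share of genes (vertical axis, percent) at or below each log2 fold change of Sup-PR over Sup-B15 (horizontal axis). The red line, for the 51 nuclear pore and transport genes, lies to the right of the grey line, for 7866 protein-coding genes with a mean CPM of 15 to 644, over most of its course and ends at 0.67. The black line shows all 14869 genes tested, whose extremes lie outside the axis.

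**Figure D2:**
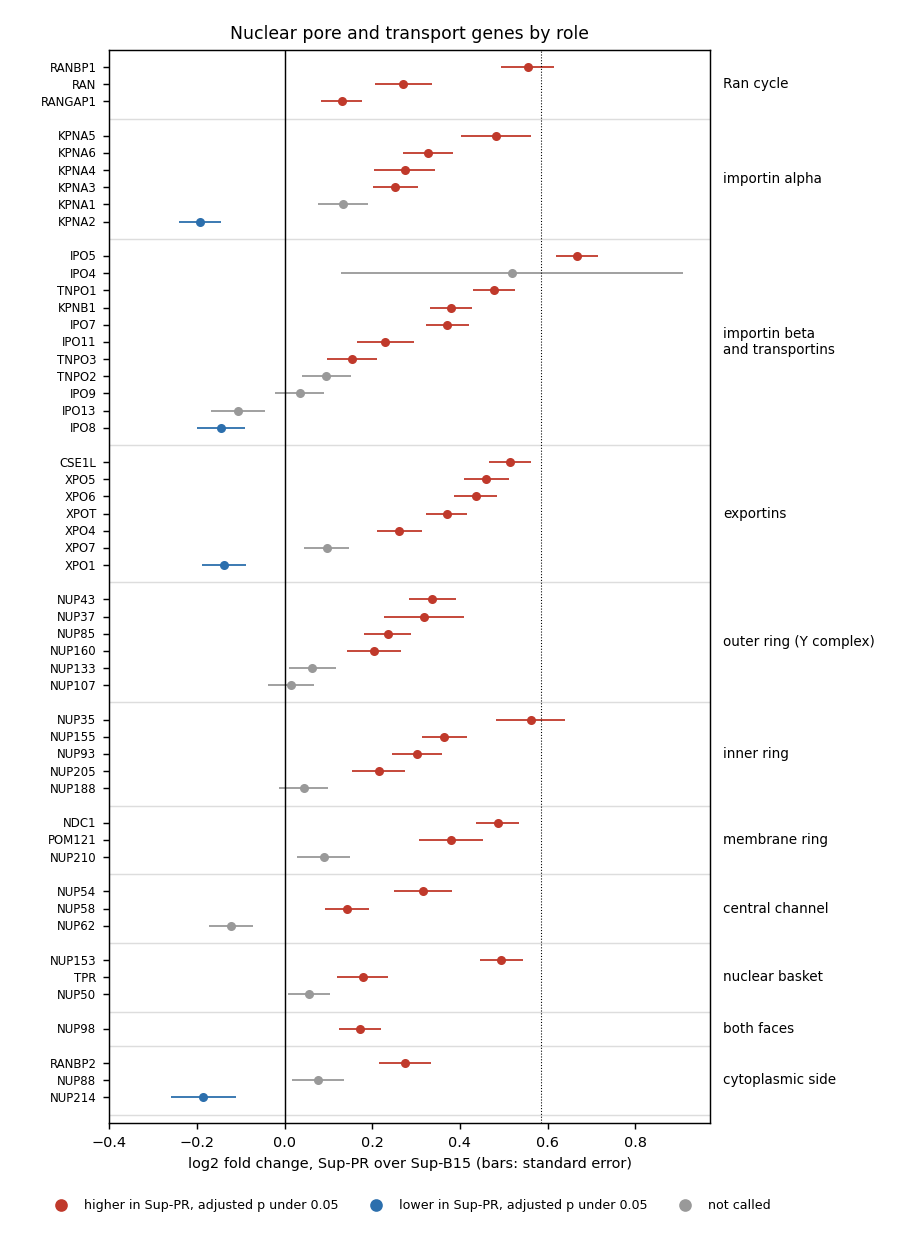
The log2 fold change of Sup-PR over Sup-B15 (horizontal axis) for each of the 51 tested members, grouped by role, with bars for the standard error. Red points passed the test as higher and blue points as lower in Sup-PR, grey points did not pass, and the dotted line marks a fold change of 1.5, which only IPO5 passed with an adjusted p under 0.05.

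All 3 members of the Ran cycle were higher in Sup-PR. RAN (ENSG00000132341, chr12:130871879-130877678 of GRCh38), the GTPase itself, had 657, 712 and 744 CPM in the Sup-PR libraries, against 558, 561 and 633 CPM in Sup-B15. Every Sup-PR library was above every Sup-B15 library, and the log2 fold change was 0.27 (SE 0.0647, adjusted p = 0.0029). RANBP1, which binds Ran-GTP and helps its GTP to be hydrolysed outside the nucleus, had 342, 376 and 371 CPM in Sup-PR, against 235, 238 and 268 CPM in Sup-B15. It rose by the third largest amount of the called members, a log2 fold change of 0.55 (SE 0.061, adjusted p = 4.6e-06), and was past 1.5-fold in 2 of the 6 fits without 1 library. RANGAP1, the protein that switches on the GTPase activity of Ran, had 272, 267 and 260 CPM in Sup-PR, against 243, 244 and 243 CPM in Sup-B15. The gap for RANGAP1 was narrow, a log2 fold change of 0.13 (SE 0.0465, adjusted p = 0.029), and the call was lost without Sup-PR library 1 or 2 (adjusted p = 0.069 and 0.14) or Sup-B15 library 1 or 2 (0.12 and 0.093), as well as under 2 of the 3 other scalings.

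Importin alpha proteins recognise the classical nuclear localisation signal and bridge it to importin beta. Of the 6 genes tested, 4 were higher in Sup-PR and 1 lower, against 28% and 27.4% of all genes tested. In all 6 the libraries of the 2 lines were apart, as they were for 61.1% of all genes tested. The one that fell was KPNA2 (ENSG00000182481, chr17:68035519-68046842), by far the most abundant of them. KPNA2 had 257, 250 and 262 CPM in Sup-PR, against 287, 290 and 302 CPM in Sup-B15. This was a log2 fold change of -0.19 (SE 0.0481, adjusted p = 0.0039), and KPNA2 was the only lower member to pass in every fit that left out 1 library. KPNA5, the least expressed importin alpha here, had 22.5, 21.3 and 20.7 CPM in Sup-PR, against 15.2, 15.1 and 15.8 CPM in Sup-B15. It rose by a log2 fold change of 0.48 (SE 0.0808, adjusted p = 0.00019). KPNA6, KPNA4 and KPNA3 rose by log2 fold changes of 0.33, 0.27 and 0.25, and KPNA1 had a log2 fold change of 0.13 that did not pass (adjusted p = 0.061).

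Within the family, the RNA therefore shifted in proportion. KPNA2 made up 56.2%, 56.1% and 55.7% of the summed FPKM (the authors' fragment count scaled for gene length and library size) of the 6 importin alpha genes in Sup-PR, against 62.7%, 63.6% and 63.8% in Sup-B15. KPNA3 took 21.6%, 21.9% and 22.1% in Sup-PR, against 18.3%, 17.7% and 18.5% in Sup-B15. Neither share overlapped between the lines, and since both are shares within a library they do not depend on how the libraries were scaled. KPNA2 remained the largest in all 6 libraries.

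Among importin beta and the transportins, the receptors that carry cargo through the channel, 6 of 11 were higher in Sup-PR and 1 was lower. By the same rule 28% and 27.4% of all genes tested were. IPO5 (ENSG00000065150, chr13:97953658-98024297), an importer of ribosomal proteins and histones, changed most of all members. Its libraries gave 460, 444 and 459 CPM in Sup-PR, against 292, 284 and 282 CPM in Sup-B15. That was 1.59-fold, a log2 fold change of 0.67 (SE 0.0479, adjusted p = 7.9e-08), and IPO5 stayed past 1.5-fold in all 6 fits without 1 library. Against a null of 1.5-fold rather than no change, edgeR's glmTreat called 0 members, and 3.26% of all genes tested as higher. KPNB1, importin beta itself, which carries the importin alpha complex, had 681, 673 and 688 CPM in Sup-PR, against 527, 523 and 519 CPM in Sup-B15. The 2 lines were well apart for KPNB1, with a log2 fold change of 0.38 (SE 0.0483, adjusted p = 1.7e-05).

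The other receptors of this group split by gene. TNPO1, which imports RNA-binding proteins such as hnRNPs, rose by a log2 fold change of 0.48, IPO7 by 0.37, IPO11 by 0.23 and TNPO3, the importer of serine/arginine-rich splicing factors, by 0.15. The call for TNPO3 was lost without Sup-PR library 1 or 2 or Sup-B15 library 2 or 3. IPO8, a close relative of IPO7, had 103, 98.8 and 94.4 CPM in Sup-PR, against 113, 109 and 106 CPM in Sup-B15. Its libraries did not overlap and the log2 fold change was -0.14 (SE 0.0544, adjusted p = 0.037). IPO13, which both imports and exports cargo, had 53.5, 49.7 and 48.3 CPM in Sup-PR, against 55.9, 54.2 and 53.0 CPM in Sup-B15. The lines overlapped for IPO13 and the test was not passed (log2 fold change -0.11, SE 0.0614, adjusted p = 0.16), although it was under 2 other scalings. TNPO2 and IPO9 had log2 fold changes of 0.10 and 0.03 and did not pass. IPO4 had few assigned reads, at 0.713 ± 0.169 CPM in Sup-PR and 0.475 ± 0.169 CPM in Sup-B15 (SD, n = 3 each). It did not pass either, and 69.3% of its exonic bases are shared with a second protein-coding gene annotated on the same strand, so that its reads could not be assigned with certainty.

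**Figure D3:**
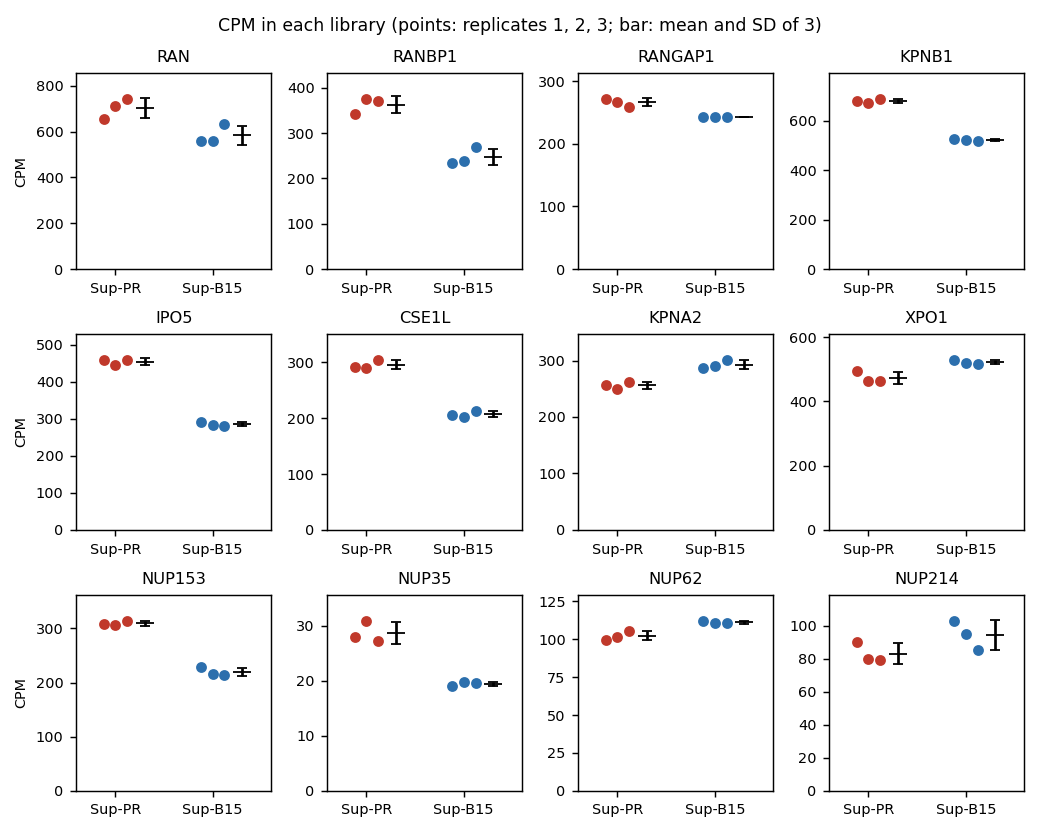
CPM (vertical axes, starting at 0) of 12 members in each Sup-PR library (red, left) and each Sup-B15 library (blue, right), with the mean and SD of 3 libraries in black. The red and blue points are apart in 11 panels, with KPNA2, XPO1 and NUP62 lower in Sup-PR, and overlap for NUP214. The lines were apart for 61.1% of all genes tested.

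Of the 7 exportins, 5 were higher in Sup-PR and 1 lower, against 28% and 27.4% of all genes tested. The libraries of the 2 lines did not overlap for any of them, as was so for 61.1% of all genes tested. CSE1L (ENSG00000124207, chr20:49046246-49096960), the exportin that returns importin alpha to the cytoplasm, had 292, 291 and 305 CPM in Sup-PR, against 207, 202 and 213 CPM in Sup-B15. It rose by a log2 fold change of 0.51 (SE 0.0484, adjusted p = 1.1e-06). XPO5, which exports microRNA precursors, rose by 0.46, XPO6, the exportin of actin, by 0.44, XPOT, that of transfer RNA, by 0.37, and XPO4 by 0.26 on the same log2 scale. XPO7 had a log2 fold change of 0.10 and did not pass (adjusted p = 0.13). XPO1 (ENSG00000082898, chr2:61477849-61538626), the main exporter of proteins with a leucine-rich export signal and the target of selinexor, went the other way. XPO1 had 496, 462 and 465 CPM in Sup-PR, against 530, 519 and 517 CPM in Sup-B15. The log2 fold change was -0.14 (SE 0.0507, adjusted p = 0.032).

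Shares within the exportin family also shifted, and XPO1 was not the only exportin to lose share. XPO7 took 7.58%, 7.63% and 7.10% in Sup-PR, against 8.62%, 8.76% and 8.33% in Sup-B15. The shares of XPO4 overlapped between the lines, and those of CSE1L, XPO5, XPO6 and XPOT were higher in Sup-PR. XPO1 made up 16.8%, 15.9% and 15.8% of the summed exportin FPKM in Sup-PR, against 22.2%, 21.9% and 21.7% in Sup-B15. CSE1L took 30.4%, 30.9% and 32.0% in Sup-PR, against 26.7%, 26.3% and 27.6% in Sup-B15. The ratio of XPO1 to CSE1L was 0.521 ± 0.0283 in Sup-PR and 0.818 ± 0.0257 in Sup-B15 (SD, n = 3 each). For CSE1L over its cargo KPNA2, the FPKM ratio was 0.938, 0.961 and 0.962 in Sup-PR, against 0.595, 0.576 and 0.583 in Sup-B15. KPNB1 over KPNA2 gave 1.08, 1.10 and 1.07 in Sup-PR, against 0.751, 0.738 and 0.704 in Sup-B15. By FPKM, which is scaled for gene length, KPNB1 was thus above KPNA2 in each Sup-PR library and below it in each Sup-B15 library. By mean CPM it was above KPNA2 in both lines (681 against 256 in Sup-PR and 523 against 293 in Sup-B15). Which of the 2 genes is higher therefore depends on the measure. These pairs were chosen after their values were seen and were not tested.

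**Figure D4:**
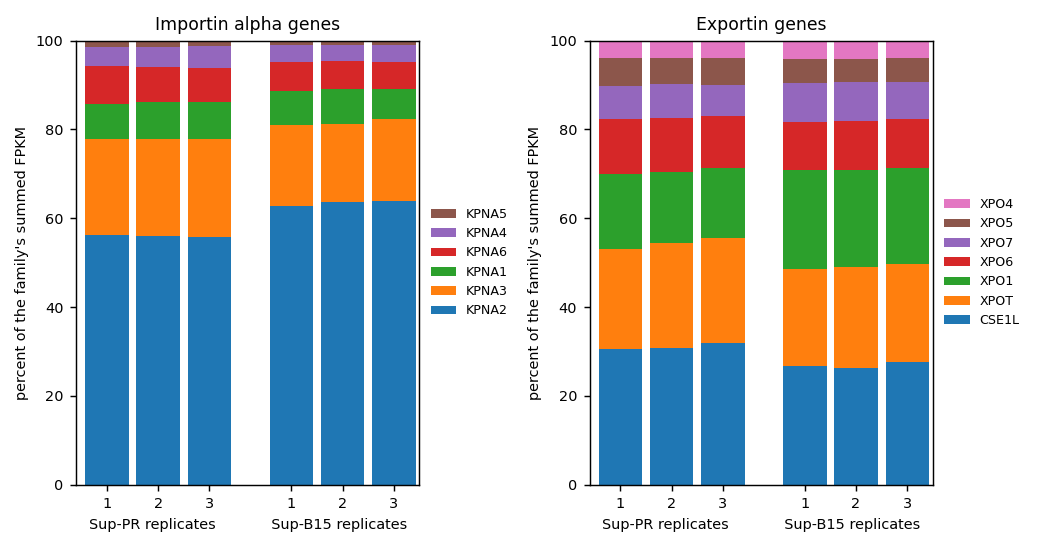
Share of each gene in the summed FPKM (vertical axis, percent) of the importin alpha genes (left) and of the exportins (right), with 1 bar per library, Sup-PR to the left of Sup-B15. KPNA2 is the blue segment at the bottom of the left panel (55.7% to 56.2% in Sup-PR and 62.7% to 63.8% in Sup-B15), and XPO1 is the green segment of the right panel (15.8% to 16.8% in Sup-PR and 21.7% to 22.2% in Sup-B15).

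Of the 24 nucleoporins tested, 16 were higher in Sup-PR and 1 lower, against 28% and 27.4% of all genes tested. Their median log2 fold change was 0.21. Of the 24 transport receptors 15 were higher and 3 lower, with a median of 0.27, and the difference between these medians was not tested. In the outer ring, the Y-shaped scaffold on both faces of the pore, 4 of 6 were higher and 0 lower. NUP43, a peripheral subunit of the Y complex, had 109, 113 and 120 CPM in Sup-PR, against 90.1, 89.7 and 90.2 CPM in Sup-B15. NUP43 rose by a log2 fold change of 0.34 (SE 0.0534, adjusted p = 0.00012). NUP37, NUP85 and NUP160 rose by 0.32, 0.23 and 0.20, whereas the scaffold subunits NUP133 and NUP107 were at 0.06 and 0.02 and did not pass. The NUP37 call was lost without Sup-PR library 3 or Sup-B15 library 2, and that of NUP160 under 2 of the 3 other scalings.

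In the inner ring, which holds the pore scaffold together around the membrane, 4 of 5 were higher and 0 lower. NUP35 (ENSG00000163002, chr2:183117513-183161680), the subunit that binds the pore membrane, had 27.9, 31.0 and 27.3 CPM in Sup-PR, against 19.1, 19.8 and 19.6 CPM in Sup-B15. This was the second largest rise among the called members, a log2 fold change of 0.56 (SE 0.0782, adjusted p = 3.9e-05). NUP155, NUP93 and NUP205 rose by 0.36, 0.30 and 0.21, and NUP188, the paralogue of NUP205, had a log2 fold change of 0.04 and did not pass. Of the 3 membrane ring genes tested, 2 were higher. NDC1, a transmembrane nucleoporin, had 163, 155 and 160 CPM in Sup-PR, against 110, 116 and 115 CPM in Sup-B15. It rose by a log2 fold change of 0.49 (SE 0.0498, adjusted p = 2.4e-06), and POM121, which helps to anchor new pores, by 0.38. NUP210, the large membrane glycoprotein of the pore, had 351, 329 and 311 CPM in Sup-PR, against 326, 317 and 289 CPM in Sup-B15. Its libraries overlapped and it did not pass (log2 fold change 0.09, SE 0.0608, adjusted p = 0.23). NUP210L, its testis-expressed relative, had 0.301, 0.304 and 0.179 CPM in Sup-PR, against 0.344, 0.145 and 0.210 CPM in Sup-B15, and was not tested.

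In the central channel, 2 of the 3 genes tested were higher in Sup-PR and 0 lower. NUP54 had 72.9, 79.9 and 83.7 CPM in Sup-PR, against 61.9, 61.1 and 67.2 CPM in Sup-B15, a log2 fold change of 0.32 (SE 0.0654, adjusted p = 0.001). NUP58 rose by 0.14, a call lost without Sup-PR library 2 or 3 or Sup-B15 library 1 or 2. NUP62, their partner in the channel, had 99.9, 101 and 106 CPM in Sup-PR, against 112, 111 and 111 CPM in Sup-B15. All Sup-PR libraries were below all Sup-B15 libraries for NUP62, but it fell just short of the threshold (log2 fold change -0.12, SE 0.05, adjusted p = 0.054). It passed without Sup-PR library 3 or Sup-B15 library 3 (adjusted p = 0.038 and 0.036) and under 2 of the 3 other scalings (0.0068 and 0.0043).

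In the nuclear basket, 2 of 3 genes were higher in Sup-PR, NUP153 by most. NUP153 (ENSG00000124789, chr6:17615035-17706834), which docks importins and Ran on the nuclear side, had 308, 306 and 315 CPM in Sup-PR, against 229, 216 and 215 CPM in Sup-B15. Its log2 fold change of 0.49 (SE 0.0486, adjusted p = 1.6e-06) was among the largest of the nucleoporins. TPR, the long coiled-coil protein of the basket, had 406, 371 and 359 CPM in Sup-PR, against 348, 338 and 319 CPM in Sup-B15. TPR rose by a log2 fold change of 0.18 (SE 0.058, adjusted p = 0.018), a call lost without Sup-PR library 1 or 2 (adjusted p = 0.072 and 0.056) or Sup-B15 library 2 or 3 (0.055 and 0.056), with upper quartile scaling (0.101), with library size only (0.154), with protein-coding genes only (0.053) and with limma on log2(FPKM + 1) without a filter (0.0595). NUP50 had a log2 fold change of 0.06 and did not pass. NUP98, found on both faces of the pore, had 217, 204 and 214 CPM in Sup-PR, against 188, 192 and 184 CPM in Sup-B15. The rise of NUP98 was 0.17 on the log2 scale (SE 0.0484, adjusted p = 0.008) and was lost under 2 of the 3 other scalings.

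On the cytoplasmic side, 1 of 3 members was higher and 1 lower. RANBP2, the giant filament protein that binds SUMO-modified RANGAP1, had 212, 186 and 191 CPM in Sup-PR, against 169, 163 and 154 CPM in Sup-B15. It rose by a log2 fold change of 0.28 (SE 0.0593, adjusted p = 0.0014). NUP214, which recruits the mRNA export helicase to the pore, had 90.2, 79.8 and 78.9 CPM in Sup-PR, against 103, 94.8 and 85.1 CPM in Sup-B15. The libraries overlapped, and NUP214 passed only narrowly (log2 fold change -0.19, SE 0.074, adjusted p = 0.047). NUP88 had a log2 fold change of 0.08 and did not pass. The table also holds NUPL2, the older name of NUP42, a cytoplasmic nucleoporin that the name rule does not take. NUPL2 had 28.8 ± 1.11 CPM in Sup-PR and 33.6 ± 0.514 CPM in Sup-B15 (SD, n = 3 each), lower by a log2 fold change of -0.22 (SE 0.0674, adjusted p = 0.012), a call lost without Sup-B15 library 2.

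Of the 4 lower members, only KPNA2 held without each library in turn. The calls for XPO1, IPO8 and NUP214 were each lost without Sup-PR library 2 or 3 and without Sup-B15 library 1 or 2. In those fits the adjusted p was 0.13, 0.076, 0.098 and 0.082 for XPO1, 0.088, 0.11, 0.12 and 0.092 for IPO8, and 0.14, 0.13, 0.18 and 0.11 for NUP214. Leaving out 1 library thus left 1 to 5 lower members. All 4 passed under each of the 3 other scalings, in the direction given.

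Levels per gene length covered a wide range within the machinery. RAN was the most abundant member in both lines, at 145 ± 10.7 FPKM in Sup-PR and 120 ± 8.49 FPKM in Sup-B15 (SD, n = 3 each). KPNB1 followed in Sup-PR at 88.3 ± 1.64 FPKM. KPNA2 (81.3 ± 2.35 FPKM), RANBP1 (78.3 ± 4.64 FPKM) and CSE1L (77.6 ± 2.79 FPKM) came next in Sup-PR, each within the spread of its neighbour. In Sup-B15 KPNA2 came next after RAN at 92.3 ± 2.34 FPKM, then KPNB1 at 67.4 ± 0.568 FPKM, and CSE1L (54.0 ± 1.29 FPKM) and RANBP1 (52.9 ± 3.87 FPKM) did not differ beyond their spread. Among the nucleoporins, NUP153 was highest in Sup-PR (51.2 ± 1.2 FPKM, against 36.1 ± 1.28 FPKM in Sup-B15). NUP210 had 40.2 ± 2.03 FPKM in Sup-PR and 37.6 ± 2.39 FPKM in Sup-B15, and in Sup-B15 it did not differ from NUP153 beyond the spread. At the low end NUP35 had 7.08 ± 0.491 FPKM in Sup-PR and 4.76 ± 0.0934 FPKM in Sup-B15, and KPNA5 had 1.88 ± 0.0549 FPKM in Sup-PR and 1.33 ± 0.0313 FPKM in Sup-B15. The summed FPKM of the 24 receptors was 715 to 737 in Sup-PR and 609 to 616 in Sup-B15, and that of 25 nucleoporins 495 to 508 in Sup-PR and 421 to 442 in Sup-B15.

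**Figure D5:**
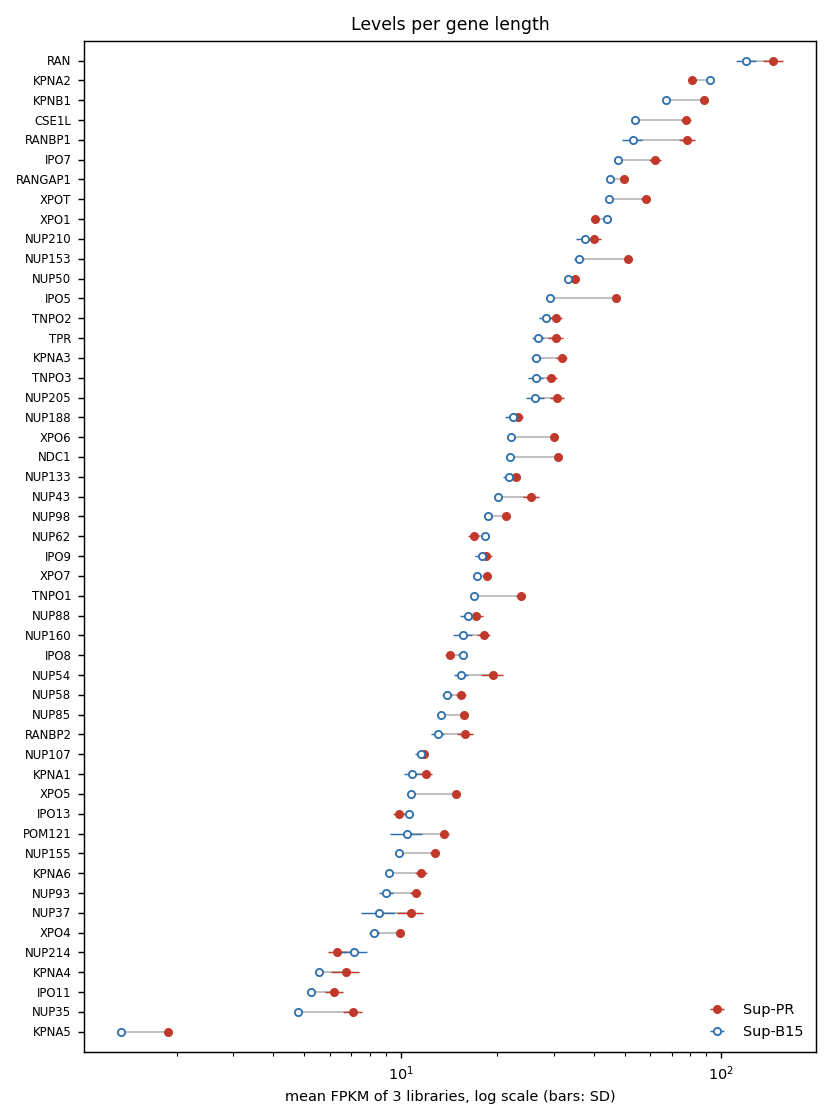
Mean FPKM of 3 libraries (horizontal axis, log scale) for 50 members, with Sup-PR as filled red and Sup-B15 as open blue points and bars for the SD. The genes are ordered by their level in Sup-B15, RAN at the top, and IPO4 and NUP210L, under 0.2 FPKM in both lines, are left out; KPNA2, XPO1, NUP62, IPO8, IPO13 and NUP214 are the 6 genes whose red point lies to the left of the blue one.

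Several members have copies elsewhere in the genome that could share their reads. The processed pseudogene of IPO5, IPO5P1 on chromosome 19, had 199, 268 and 246 counts in Sup-PR, against 331, 538 and 403 in Sup-B15. It was lower in Sup-PR by a log2 fold change of -0.87 (SE 0.0945, adjusted p = 4.3e-06), opposite to IPO5, and a second entry of that name was lower by -1.22. The RGPD genes are partial duplicates of RANBP2, and the 7 in the table together held 3.12% to 4.65% as many counts as RANBP2 in Sup-PR and 4.78% to 6.70% in Sup-B15. RGPD3, RGPD5 and RGPD8 did not pass, and RGPD1, RGPD2 and RGPD4 had too few reads to be tested. RGPD6 was the only one to pass, with 9, 15 and 10 counts in Sup-PR, against 50, 97 and 25 in Sup-B15 (log2 fold change -2.31, SE 0.379, adjusted p = 0.00016). POM121C, the near-identical copy of POM121, did not pass, at 153 ± 2.80 CPM in Sup-PR and 146 ± 7.80 CPM in Sup-B15 (SD, n = 3 each). RANP1, a processed pseudogene of RAN, had 49, 55 and 47 counts in Sup-PR and 26, 28 and 37 in Sup-B15 (log2 fold change 0.67, SE 0.262, adjusted p = 0.043), a call lost in 5 of the 6 fits without 1 library. Of the other copies tested, XPOTP1 (32, 47 and 42 counts in Sup-PR, against 32, 48 and 31 in Sup-B15), TNPO1P3 (13, 17 and 13 in Sup-PR, against 6, 12 and 3 in Sup-B15) and POM121B (38, 33 and 23 in Sup-PR, against 16, 33 and 27 in Sup-B15) did not pass. IPO7P2, KPNA2P1, NUP210P3, RANP3, RANP4, RANP8 and TNPO1P1 had 4 counts or fewer in every library. How reads were split between these copies is not given in the sources used here. The same holds for strand, which matters for the 21 members that share exonic bases with a gene on the opposite strand. Those that share over 8% in this way are POM121 (18.9%), NUP88 (18.7%), KPNA1 (16.3%), NUP62 (10.4%), NUP153 (9.25%), NUP214 (9.16%) and RANBP1 (8.5%). On their own strand 10 members share bases with another gene, over 8% of them in IPO4, IPO11 (22.6%), NUP62 (12%) and KPNA6 (8.92%), so the values of all these members are less certain.

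MYC and related factors bind the E-box CACGTG, which reads the same on both strands. It was searched in the 250 bases before each RefSeq start (GRCh38.p14), a window found for 46 of the 52 members. The E-box was present in 8 of the 46 (17.4%), against 7.73% of the 27305 genes with such a window and 11.2% of the tested protein-coding genes among them. The 8 were XPO1, NUP188, IPO7, RAN, KPNA3, IPO4, TNPO2 and NUP50. In 4 of them the 30-base window around each match is not found whole in any spliced transcript of the gene itself in GENCODE. These windows are shown 5′ to 3′ on the gene's strand with the E-box in capitals. They are examples that include a gene that rose, another that fell and 2 that did not pass. The IPO7 window is intergenic and that of XPO1 lies in an intron of its longer transcripts, with its last bases in the 5′ UTR of a shorter one. Both NUP188 windows lie in an intron of AL672142.1, annotated on the same strand, the first of them also at the edge of an exon of DOLK on the opposite strand, and the NUP50 window lies in an exon of the opposite-strand lincRNA NUP50-DT.
IPO7, chr11:9384502-9384531, plus strand: agctcaggcagcCACGTGggctgcggactg
XPO1, chr2:61537114-61537143, minus strand, at 1 of its 2 RefSeq starts: gtccgcctgcatCACGTGgccccctcggtg
NUP188, chr9:128947610-128947639, plus strand: ccgcggcaacgtCACGTGacgaaatccccg
NUP188, chr9:128947657-128947686, plus strand: ggggcgagcggtCACGTGggcatggcgtct
NUP50, chr22:45163739-45163768, plus strand, at 1 of its 2 RefSeq starts: cgttgccggcccCACGTGagccgacgcccc

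Of the 8 members with the E-box, 3 (IPO7, RAN and KPNA3) were higher in Sup-PR and 1 (XPO1) lower, with a median log2 fold change of 0.17. Of the 37 tested members whose window lacked it, 26 were higher and 3 lower, with a median of 0.23. NUP188, with 2 copies of the E-box, had a log2 fold change of 0.04. The letters are a description of these windows and say nothing about whether a factor was bound.

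Genes of the same machinery outside the name rule were also more often higher than lower in Sup-PR. Of 13 other pore and pore-associated genes 7 were higher in Sup-PR and 0 lower, with a median log2 fold change of 0.22. The share higher was 28% over all genes tested and 39.6% among the protein-coding genes of 15 to 644 CPM. The pore-associated genes include SENP1, SENP2, DDX19A, DDX19B and MCM3AP. The 7 became 6 to 8 without 1 library and 6 under each of the 3 other scalings, with 0 lower throughout. NUPL2, described above as lower in Sup-PR, is not among the 13. None of these passed 1.5-fold, and the examples that follow for this list and for the next 2 were chosen after their values were seen. AHCTF1, the chromatin-binding protein that starts pore assembly after mitosis, had 284, 268 and 282 CPM in Sup-PR, against 205, 203 and 194 CPM in Sup-B15 (log2 fold change 0.47, SE 0.0495, adjusted p = 3e-06). SEH1L and SEC13, which complete the Y complex, rose by 0.34 and 0.23. Against the same background shares, 8 of 11 other genes of the Ran cycle and receptors were higher and 0 lower, with a median of 0.19. That count was 5 without Sup-PR library 2, Sup-PR library 3 or Sup-B15 library 1, and 5 higher with 1 lower under 2 of the 3 other scalings. RCC1, the chromatin-bound exchange factor that loads Ran with GTP, rose by 0.32, and NUTF2, which returns Ran-GDP to the nucleus, by 0.38.

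Of 20 genes of mRNA export, a route that does not use Ran directly, 9 were higher in Sup-PR and 3 lower, with a median of 0.15. That share is near the 39.6% higher among the protein-coding genes of 15 to 644 CPM. Both subunits of the main mRNA export receptor passed, in opposite directions. NXF1 had 94.7, 93.9 and 88.4 CPM in Sup-PR, against 109, 113 and 104 CPM in Sup-B15, a log2 fold change of -0.23 (SE 0.0547, adjusted p = 0.0024). Its partner NXT1 had 43.4, 48.4 and 50.6 CPM in Sup-PR, against 31.5, 31.1 and 35.6 CPM in Sup-B15, a log2 fold change of 0.54 (SE 0.0778, adjusted p = 5.2e-05).

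The nuclear lamina and envelope, in which the pores sit, moved in both directions. Of 18 genes 6 were higher and 7 lower, with a median of -0.04, where 28% and 27.4% of all genes tested were. The 6 higher became 3 without Sup-PR library 2, Sup-PR library 3 or Sup-B15 library 1, 2 without Sup-B15 library 2, and 3 or 4 under the other scalings. SUN2, an inner nuclear membrane protein that links the lamina to the cytoskeleton, had 299, 292 and 286 CPM in Sup-PR, against 554, 553 and 541 CPM in Sup-B15. All Sup-PR libraries were far below those of Sup-B15, a log2 fold change of -0.91 (SE 0.0484, adjusted p = 4.2e-09). The nesprins, which bind SUN proteins across the envelope, split by gene. SYNE1 had 10.7, 9.74 and 9.54 CPM in Sup-PR, against 23.2, 23.6 and 19.0 CPM in Sup-B15 (log2 fold change -1.14, SE 0.105, adjusted p = 8.5e-07). SYNE2 had 21.5, 19.99 and 19.1 CPM in Sup-PR, against 33.3, 32.7 and 36.4 CPM in Sup-B15 (log2 fold change -0.76, SE 0.078, adjusted p = 2.6e-06). SYNE3 was the one that rose, with 172, 178 and 170 CPM in Sup-PR, against 111, 110 and 92.8 CPM in Sup-B15 (log2 fold change 0.72, SE 0.0663, adjusted p = 8.3e-07). The calls for these 4 genes, past 1.5-fold, held without each library in turn.

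Markers of proliferation were called in both directions, at shares near those of all genes tested (28% higher and 27.4% lower). Of 20 genes 6 were higher and 6 lower in Sup-PR (median log2 fold change -0.07), and the 6 lower became 10 and 11 under 2 of the 3 other scalings. The 6 higher ones were PCNA and the replication helicase subunits MCM2, MCM3, MCM4, MCM6 and MCM7, with log2 fold changes of 0.23 to 0.29, and the PCNA call was lost without Sup-PR library 3 or Sup-B15 library 1 or 2. The 6 lower ones were BUB1, TOP2A, MKI67, CDK1, AURKB and CCNB1, of which the first 3 were also past 1.5-fold. BUB1, a kinase of the spindle checkpoint, had 176, 176 and 173 CPM in Sup-PR, against 273, 272 and 271 CPM in Sup-B15 (log2 fold change -0.64, SE 0.0456, adjusted p = 7.6e-08). TOP2A, a topoisomerase of dividing cells, had 990, 879 and 927 CPM in Sup-PR, against 1432, 1422 and 1348 CPM in Sup-B15 (log2 fold change -0.59, SE 0.0593, adjusted p = 2.1e-06), and stayed past 1.5-fold in 3 of the 6 fits without 1 library. MKI67, the gene of the Ki-67 antigen, had 580, 497 and 472 CPM in Sup-PR, against 899, 881 and 712 CPM in Sup-B15 (log2 fold change -0.69, SE 0.0934, adjusted p = 5.1e-05). None of these 3 overlapped between the lines, as was so for 61.1% of all genes tested. Other genes of mitosis on the list, PLK1 (0.05), CCNB2 (-0.09), AURKA (-0.15) and BIRC5 (-0.07), did not pass, with their log2 fold changes in parentheses. The remaining genes of the list, MCM5 (0.10), TYMS (0.02), RRM2 (-0.11) and CCNA2 (-0.07), did not pass either. The part of these genes' change in that of the transport genes was not tested.

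Members lay on 18 chromosomes, with at most 7 on any of them. The median log2 fold change of protein-coding genes ran from -0.10 to 0.13 across chromosomes 1 to 22 and X. Chromosome 13, with a median of -0.07, carried IPO5 (0.67), XPO4 (0.26), KPNA3 (0.25) and NUP58 (0.14). On chromosome 17, with a median of -0.04, KPNB1 was higher and KPNA2 lower.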

How the data were processed

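RNA-seq libraries of 3 Sup-PR and 3 Sup-B15 samples were grouped by their labels. The submitters' processing notes name CASAVA, HISAT2, DESeq2 and GRCh38.p12; no source used here gives the counting program or whether it read strand. The authors deposited raw counts per gene, FPKM, and a signal column of counts divided by 1 size factor per library; the deposited table also holds the authors' own log2 fold change and p-value, which were not used. No per-sample column was left unmapped (0).

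Counts were filtered (filterByExpr), scaled by TMM and tested two-sided with edgeR 4.0.16 (glmQLFit with robust estimation, glmQLFTest) in R 4.3.3, with Benjamini-Hochberg adjustment over 14869 genes. The threshold for a call was 0.05 on the adjusted p, with 1.5-fold as a second, stricter one. CPM were computed from the TMM-scaled library totals, and SE are standard errors of the log2 fold change. With 3 against 3 an exact permutation test cannot go below p = 0.1, so smaller values rest on the spread edgeR shares across genes. The pipeline was tested on simulated counts. Libraries of a line all differed by more than counting noise, with a chi-square of 2.92 to 9.67 for each gene on average.

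Alternatives were DESeq2 1.42.0, limma 3.58.1 (voom, and log2 FPKM plus 1 or 0.1), other scalings, filters and thresholds, a fit to protein-coding genes alone, leaving out each library and the replicate number as a block; for the lists by role and context, leaving out libraries and the other scalings were added after seeing the data. Members, lists and roles were chosen with earlier results of these data known. Named with full values were members past both thresholds, 15 fixed members and the member with the smallest adjusted p per role and direction. So were NUP210L and context genes past both thresholds (up to 4 per direction). Copies that hold counts were named, some of them without values. All other members are given by log2 fold change so that each is accounted for. All 52 members had the coordinates of GENCODE release 29, from which overlaps were taken. Promoters were those of RefSeq. No protein sequence was used here.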

Additional observations from a re-analysis of the deposited data

How the results depend on the processing

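More members were higher than lower in every alternative that tested against no change (26 to 36 higher, 1 to 6 lower). Of all genes tested, 13.4% to 31.9% were higher in these alternatives. In both directions glmTreat against 1.5-fold called 0 members, and it called 3.26% of all genes tested as higher. The members' median log2 fold change of 0.25 was 0.20 with upper quartile scaling and 0.18 with library size only. The median of all genes tested also fell under these scalings, from -0.01 to -0.0709 and -0.0825. For the members it was 0.22 with at least 10 counts in every library and 0.22 with protein-coding genes only, where that of all genes was -0.0046 and -0.016. Without 1 library the members' median ran from 0.22 to 0.26. Higher members numbered 29 to 32 without 1 library. The 4 lower members became 2 with DESeq2, 1 with limma on log2(FPKM + 1) without a filter, 1 at an adjusted p under 0.01, and 1 to 5 without 1 library. The 1 member higher past 1.5-fold became 0 with glmTreat and 0 at 2-fold, and 1 to 2 without 1 library (2 without Sup-PR library 1 or 3 or Sup-B15 library 3). Members lower past 1.5-fold stayed at 0 in all. Of the 440 values of the 22 named members under other settings, 385 kept their side of the threshold, 45 lost it, 10 gained it and 0 changed sign. Those that lost it were RANGAP1, NUP214, TPR, IPO8, XPO1 and NUP98. Over all 51 tested members, some did change sign. The fewest to keep it were 46 with library size only, then 47 with upper quartile scaling and 48 without Sup-B15 library 3. A replicate block gave 36 higher and 5 lower members and brought NUP62 (adjusted p = 0.025) and NUP210 (0.046) past the threshold. Deviations of libraries with the same number correlated at 0.13, -0.06 and 0.20, and those of libraries with different numbers at -0.25 to 0.15. The study's methods name no pairing, so the numbers were not taken as pairs. The cause of these changes was not tested. IPO4 and NUP210L are limited by their few counts, and IPO4 also by the exonic bases it shares with another gene on its strand.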
